A study of Mus musculus with 6 samples.

Results

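The CDK inhibitors and the pocket proteins are the brakes of the G1 phase of the cell cycle, and their 10 genes were followed here in cultured CD63+ cells of adult mouse liver, from livers injured with DDC and from livers without injury. The members are Cdkn1a, Cdkn1b and Cdkn1c of the CIP/KIP family, Cdkn2a, Cdkn2b, Cdkn2c and Cdkn2d of the INK4 locus and family, and the pocket protein genes Rb1, Rbl1 and Rbl2. Every probe of the arrays whose transcript accession belongs to 1 of these genes was taken, which gave 14 probes of 39429, on 32 of the 43020 spots that were not controls. Cdkn1a, Cdkn2a, Cdkn2b and Rbl1 had 2 probes each and the other 6 genes had 1. All 14 probes were well above background on all 6 arrays, so every member was tested.

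Cyclin-dependent kinases drive a cell through division when cyclins bind them. INK4 proteins bind CDK4 and CDK6 and keep D-type cyclins away, whereas CIP/KIP proteins bind complexes of cyclins with CDKs, above all those of CDK2. The pocket proteins hold E2F transcription factors in check until these kinases phosphorylate them. Rb1 encodes pRB, the retinoblastoma protein, Rbl1 encodes p107, which is itself an E2F target and is found mostly in cycling cells, and Rbl2 encodes p130, the pocket protein that is most abundant in resting cells. In the liver, hepatocytes are mostly at rest and enter the cycle after injury, and p21, the product of Cdkn1a, is known to restrain that entry.

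The 6 samples were RNA extracts on 1-colour Agilent arrays, 3 of DDC injury and 3 of no injury by their labels. DDC blocks haem synthesis and injures bile ducts and hepatocytes. Cells of both groups had been sorted for CD63, a tetraspanin, and then grown with dexamethasone, nicotinamide, insulin, HGF, EGF and serum. The measurements are thus of cultured cells, not of cells fresh from the liver. The labels used here give no strain, age or sex, do not say how many animals a culture came from, and name no transgene. Their treatment text adds VEGF and bFGF to some cultures under codes that match no sample title, and the names of 2 no-injury files carry the same numbers as 2 of these codes, so the additions and the group cannot be told apart. Cd63 itself was well above background on all 6 arrays and differed by -0.11 ± 0.17 (SE, adjusted p = 0.66).

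Signals are given on the log2 scale relative to the 75th percentile of the array, so that a value of 1 is a signal 2 times that percentile. They show how 1 probe varies between arrays, and the levels of different probes are not compared. Between 65.0% and 74.8% of spots were well above background and none was saturated. Bright probes printed 10 times did not separate no-injury replicates 1 and 3 beyond the noise of repeated spots (chi-square 142.2 over 137 probes, p = 0.34), so the pair was averaged and counted once, which left 2 no-injury samples to set against the 3 of DDC injury. The matching of spots by position, or the use of all 246 repeated probes, did separate them (chi-square p over probes, not over samples, of 1.62e-08 and 1.65e-05), so the 2 arrays are alike rather than identical. On the bright probes, unmatched, the SD of the difference between arrays was 1.12 times the spot noise for this pair. For no-injury replicate 2 against replicates 1 and 3 it was 1.39 and 1.96 times. Between DDC injury arrays it was 6.05 to 15.4 times. Replicate 2 thus lay far closer to the pair than the DDC injury arrays lay to each other. The calls below depend on counting it as a second sample. Whether the samples of a group are separate cultures is not stated beyond the words of the series that speak of 6 cell lines, and p-values measure only the spread between these samples. Differences are DDC injury minus no injury from limma with its standard error, and a gene is said to have risen or fallen where the p adjusted over all 27431 probes tested was under 0.05.

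RefSeq start regions (GRCm38.p6) were found for 8 of the 10 members, 11 regions in all and none for Cdkn1c and Rb1. Those of 5 members that rose or fell are shown, so that their letters can be read beside the expression values below. The region of Cdkn2b, which also rose, and that of the downstream start of Cdkn1a are not shown. Neither held an E2F word or the p53 core described next. The same is true of the shown regions of Cdkn1b, Rbl2 and the downstream start of Cdkn2a. Each line holds the 250 bases before the start, 5′ to 3′ on the gene's own strand. Capitals mark an E2F word (TTTGGCGC, TTTCCCGC, TTTCGCGC or TTTGCCGC on either strand) or, in Cdkn1a, the p53 core, CATG, any 6 bases and CATG, which reads alike on both strands.
Cdkn1a, upstream start, chr17:29090729-29090978, plus strand: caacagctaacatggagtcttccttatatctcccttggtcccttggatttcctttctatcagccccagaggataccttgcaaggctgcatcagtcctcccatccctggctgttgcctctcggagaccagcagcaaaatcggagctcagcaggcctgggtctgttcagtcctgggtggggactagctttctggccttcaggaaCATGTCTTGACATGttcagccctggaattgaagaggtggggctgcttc
Rbl1, chr2:157204535-157204784, minus strand: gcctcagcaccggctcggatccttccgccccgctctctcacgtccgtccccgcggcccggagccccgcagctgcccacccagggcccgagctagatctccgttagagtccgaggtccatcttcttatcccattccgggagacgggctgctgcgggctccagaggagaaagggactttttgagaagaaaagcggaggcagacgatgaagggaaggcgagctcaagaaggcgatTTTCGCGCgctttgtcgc
Cdkn2a, upstream start (Arf), chr4:89294620-89294869, minus strand: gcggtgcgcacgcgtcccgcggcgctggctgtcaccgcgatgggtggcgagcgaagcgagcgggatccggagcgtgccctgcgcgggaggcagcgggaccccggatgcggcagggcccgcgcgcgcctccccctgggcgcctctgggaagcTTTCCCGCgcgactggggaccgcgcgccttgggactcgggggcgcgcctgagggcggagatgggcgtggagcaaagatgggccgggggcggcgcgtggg
Cdkn2a, downstream start (Ink4a), chr4:89282193-89282442, minus strand: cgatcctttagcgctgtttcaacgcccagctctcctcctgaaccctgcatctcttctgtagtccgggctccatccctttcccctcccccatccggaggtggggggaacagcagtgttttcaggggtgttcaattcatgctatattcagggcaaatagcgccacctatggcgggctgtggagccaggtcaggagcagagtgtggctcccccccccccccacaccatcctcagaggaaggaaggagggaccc
Cdkn1b, chr6:134920151-134920400, plus strand: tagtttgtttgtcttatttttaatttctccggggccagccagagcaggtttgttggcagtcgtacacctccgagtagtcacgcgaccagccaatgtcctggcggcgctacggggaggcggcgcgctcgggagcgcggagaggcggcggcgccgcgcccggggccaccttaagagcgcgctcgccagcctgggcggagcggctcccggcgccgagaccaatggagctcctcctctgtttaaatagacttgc
Rbl2, chr8:91069807-91070056, plus strand: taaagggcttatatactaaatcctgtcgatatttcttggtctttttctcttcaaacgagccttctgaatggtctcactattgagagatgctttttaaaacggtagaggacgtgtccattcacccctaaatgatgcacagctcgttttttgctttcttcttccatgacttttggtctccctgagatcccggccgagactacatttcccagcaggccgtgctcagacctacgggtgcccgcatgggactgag

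The p53 core stood 48 to 35 bases before the upstream start of Cdkn1a, and 0.49% of the 32851 RefSeq start regions of the same length held such a core. An E2F word stood 18 to 11 bases before the start of Rbl1 and 99 to 92 bases before the upstream start of Cdkn2a. These were 2 of the 11 member regions, against 1.86% of all regions. The CHR element TTTGAA was found in 2 member regions, those of Cdkn2b and Rbl2, and in 16% of all regions. The GC box GGGCGG was found in 6 of 11 and in 32.7% of all. The FoxO word TGTTTAC was found in 0 of the 11 and in 3.17% of all. A match is a description of letters, and neither binding nor methylation was measured here.

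Of the 14 member probes, 8 were higher in DDC injury, 2 were lower and 4 did not pass. Over all probes tested, 15.5% were higher and 13.8% lower, 29.3% in all. The 8 higher probes are all the probes of Cdkn1a, Cdkn2a, Cdkn2b and Rbl1, and the 2 lower ones are those of Cdkn1b and Rbl2. Cdkn1c, Cdkn2c, Cdkn2d and Rb1 did not pass. Thus inhibitors of both families moved, and within the CIP/KIP family and among the pocket proteins members moved in opposite directions. The arrays of the groups did not overlap at 12 of the 14 probes, 10 above and 2 below, whereas 61.0% of all probes with a value on every array showed no overlap, 29.5% with DDC injury above and 31.5% with it below. The median difference was 0.68 over the member probes and -0.10 over all probes.

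**Figure D1:**
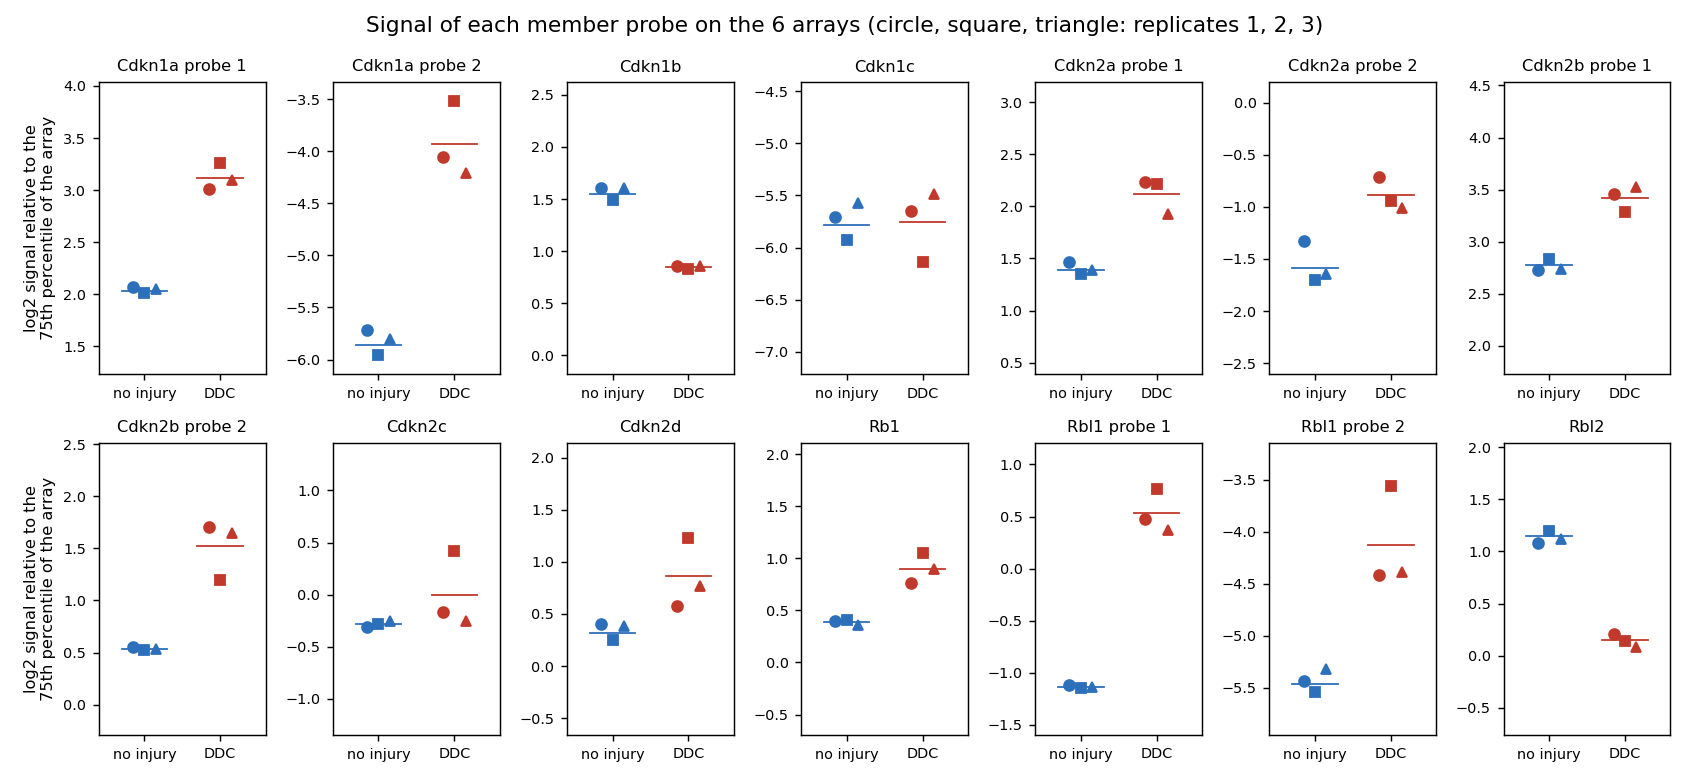
Log2 signal of each of the 14 member probes relative to the 75th percentile of the array, no injury in blue and DDC injury in red, with replicates 1, 2 and 3 as circle, square and triangle and the mean of the samples as a line; every panel spans the same log2 range. The groups overlap for Cdkn1c and Cdkn2c only, the DDC injury arrays lie below for Cdkn1b and Rbl2, and they lie above at the other 10 probes.

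Cdkn1a, which encodes p21, the CDK inhibitor induced by p53, was higher in the cells from injured livers at both probes. Its bright probe, A_51_P363947, read 3.01, 3.26 and 3.10 in DDC injury replicates 1, 2 and 3 and 2.07, 2.01 and 2.05 in no-injury replicates 1, 2 and 3. All DDC injury arrays lay above all no-injury arrays by a gap far wider than the spread within either group. The mean rose from 2.03 ± 0.04 (SD, n = 2) to 3.12 ± 0.12 (SD, n = 3), by 1.09 ± 0.13 (SE, 2.13-fold, adjusted p = 0.00795). This probe is printed 10 times on the array, and the lowest spot of the DDC injury arrays, at 2.93, stood above the highest of the no-injury arrays, at 2.13. These spots repeat the same samples and do not add to their number. The dim probe A_55_P1986282, annotated to the other Cdkn1a transcript accession of the arrays, read -4.06, -3.52 and -4.21 against -5.72, -5.96 and -5.80. It rose by 1.93 ± 0.25 (3.81-fold, adjusted p = 0.01). How far the probes differed changed with the treatment of background. After a normexp correction scaled to the same percentile, the dim probe differed by 1.12, close to the 1.02 of the bright probe, and in the authors' deposited table it was 1.48 against 0.93.

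**Figure D2:**
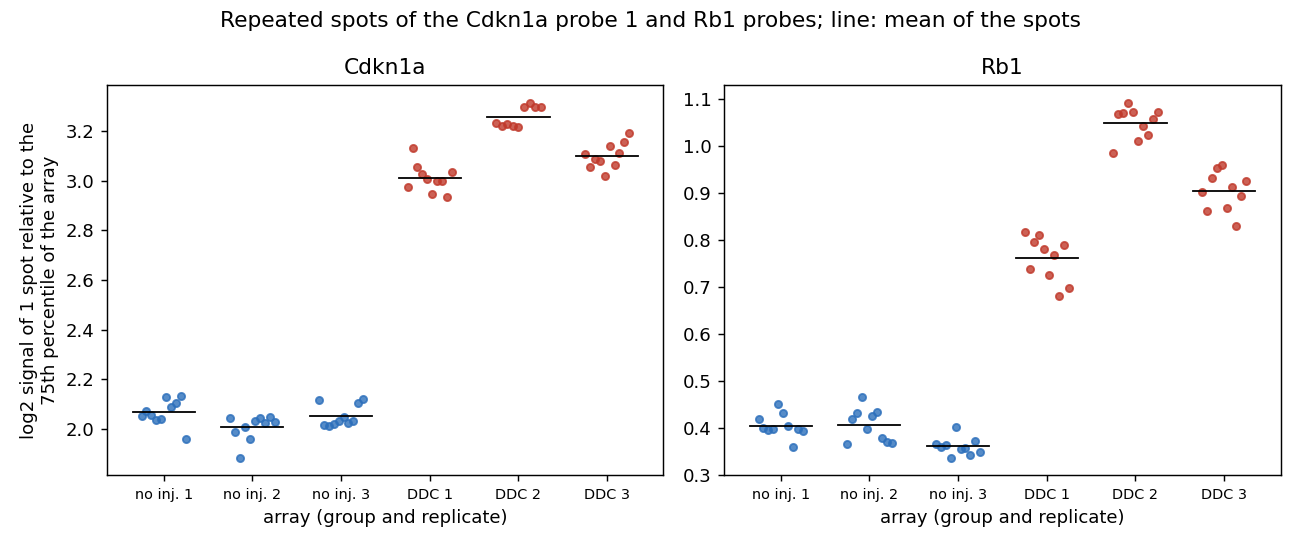
Log2 signal of single spots of Cdkn1a (probe A_51_P363947, left) and Rb1 (right) relative to the 75th percentile of the array, by array, with the mean of the spots as a line. Spots of 1 array lie close together, the 3 no-injury arrays lie within 2.01 to 2.07 (Cdkn1a) and 0.36 to 0.41 (Rb1), and the means of the DDC injury arrays are further apart (3.01 to 3.26 and 0.76 to 1.05); DDC injury replicate 2 has 9 Cdkn1a spots.

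Cdkn1b, which encodes p27, the inhibitor that accumulates in resting cells and is broken down when they enter the cycle, was lower. Its probe read 0.86, 0.83 and 0.86 in the DDC injury arrays and 1.61, 1.49 and 1.61 in the no-injury arrays. The DDC injury arrays were nearly equal to each other and all below the no-injury arrays. The log2 level of Cdkn1b fell by 0.70 with an SE of 0.11, which is 1.62-fold lower (adjusted p = 0.0144). Cdkn1c, which encodes p57, an imprinted inhibitor best known from embryonic growth, did not pass. It read -5.65, -6.14 and -5.49 against -5.71, -5.93 and -5.57, and the groups overlapped. The difference was 0.03 ± 0.25 (95% confidence interval -0.64 to 0.69, adjusted p = 0.949), its sign changed between settings, and a change within that interval was not detectable at this signal level.

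Cdkn2a encodes 2 unrelated proteins from separate first exons, the CDK4 and CDK6 inhibitor p16 and the p53-stabilising p19ARF. Both of its probes were higher by nearly the same amount. A_55_P2008437 read 2.23, 2.21 and 1.93 in DDC injury and 1.47, 1.35 and 1.39 in no injury, and it rose by 0.73 ± 0.14 (1.66-fold, adjusted p = 0.0263). A_55_P2008438 read -0.71, -0.94 and -1.01 against -1.33, -1.70 and -1.64, and it rose by 0.71 ± 0.15 (1.63-fold, adjusted p = 0.0339). The groups did not overlap at either probe. The arrays annotate both probes to the same transcript accession, and the exon in which each lies is not given in the sources used here, so the p16 and p19ARF transcripts cannot be told apart in these values.

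Cdkn2b, which encodes p15, the INK4 inhibitor known as a target of TGF-beta, lies in the same locus of chromosome 4 as Cdkn2a. It too was higher at both probes. A_55_P1988183 read 3.46, 3.29 and 3.53 in DDC injury and 2.73, 2.83 and 2.74 in no injury, a rise of 0.64 ± 0.13 (1.56-fold, adjusted p = 0.0272). A_55_P1979526 read 1.70, 1.20 and 1.65 against 0.55, 0.52 and 0.53, a rise of 0.99 ± 0.20 (1.98-fold, adjusted p = 0.0269). No DDC injury array overlapped the no-injury arrays, and DDC injury replicate 2 was the lowest of its group at both probes.

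The other INK4 genes did not pass. Cdkn2c, which encodes p18, read -0.17, 0.42 and -0.25 in DDC injury and -0.31, -0.28 and -0.25 in no injury. Replicate 2 stood alone, while replicates 1 and 3 lay at the level of the no-injury arrays. The difference was 0.28 ± 0.25 (95% confidence interval -0.38 to 0.94, adjusted p = 0.454), and without that replicate it was 0.07. Cdkn2d, which encodes p19INK4d, read 0.58, 1.23 and 0.77 against 0.40, 0.25 and 0.38. All its DDC injury arrays lay above, again with replicate 2 highest, and the difference of 0.54 ± 0.23 had an interval of -0.08 to 1.16 (adjusted p = 0.155).

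Rbl1, the p107 gene, had the largest rise among the members at a bright probe. A_51_P286665 read 0.48, 0.76 and 0.37 in DDC injury and -1.12, -1.15 and -1.14 in no injury. The no-injury arrays were almost equal and every DDC injury array lay far above them. Rbl1 rose from -1.14 ± 0.01 (SD, n = 2) to 0.53 ± 0.20 (SD, n = 3), by 1.67 ± 0.16 (3.19-fold, adjusted p = 0.00524). A dimmer probe, A_55_P2024773, annotated to another Rbl1 transcript accession, read -4.42, -3.56 and -4.39 against -5.43, -5.54 and -5.32. It rose by 1.33 ± 0.32 (2.52-fold, adjusted p = 0.0427), and after normexp background correction the difference was 0.85 with scaling to the 75th percentile, which did not pass (adjusted p = 0.0517), and 0.86 with quantile normalization, which did (adjusted p = 0.0241).

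Rbl2, the p130 gene, moved the other way. Its probe read 0.21, 0.14 and 0.08 in DDC injury and 1.08, 1.20 and 1.12 in no injury. The groups were far apart, each within a narrow range. The log2 level of Rbl2 fell by 1.01 with an SE of 0.11, which is 2.01-fold lower (adjusted p = 0.00722). Rb1 lay between these genes. Its 10-spot probe read 0.76, 1.05 and 0.90 against 0.40, 0.41 and 0.36, without overlap, and no single spot of the DDC injury arrays (lowest 0.68) reached down to the no-injury spots (highest 0.47). Spots of 1 array repeat 1 sample, so they do not measure the spread between samples. The difference of 0.51 ± 0.13 (1.42-fold, 95% confidence interval 0.15 to 0.87) missed the threshold over all probes in limma (adjusted p = 0.0522).

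**Figure D3:**
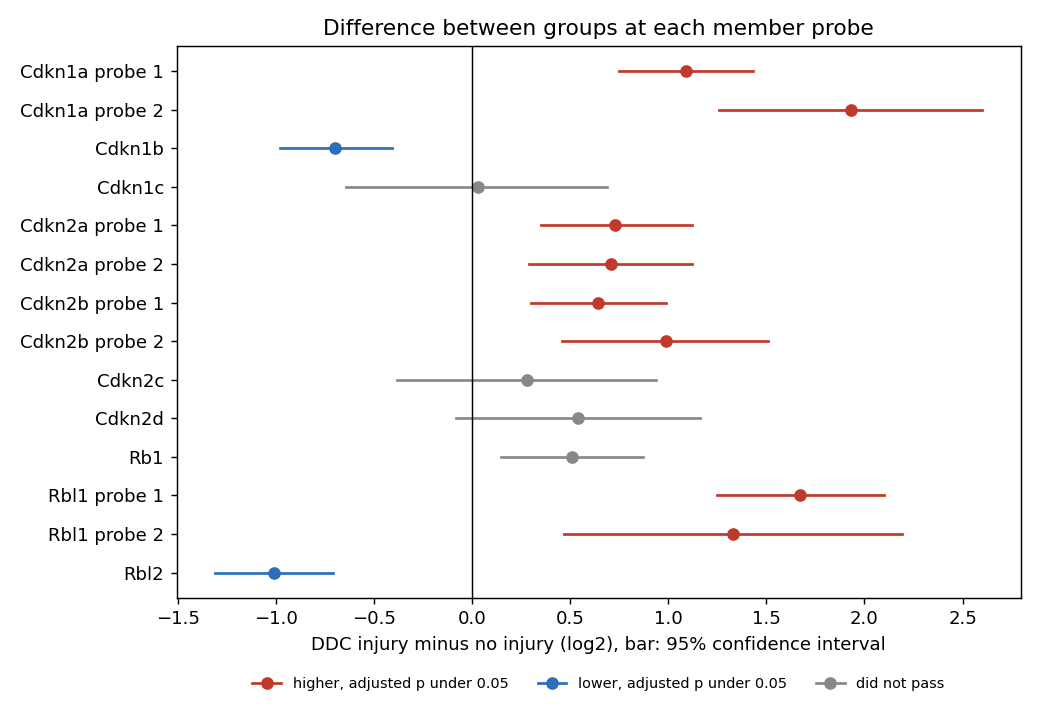
Difference between the groups (DDC injury minus no injury, log2) at each of the 14 member probes with its 95% confidence interval, red where higher, blue where lower and grey where the test was not passed. Rbl1 and Cdkn1a lie to the right at 1.09 to 1.93, Rbl2 and Cdkn1b to the left at -1.01 and -0.70, and the grey intervals of Cdkn1c, Cdkn2c and Cdkn2d include 0.

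DDC injury replicate 2 was the highest of its group at both Cdkn1a probes, Cdkn2c, Cdkn2d, Rb1 and both Rbl1 probes. It was the lowest at Cdkn1c, both Cdkn2b probes and, by a narrow margin (0.83 against 0.86), Cdkn1b. No scan of the 3 mixed the groups, so that group and scan cannot be told apart, and the first DDC injury array was read on another day than the rest. Within the day that held both groups, 9 member probes were higher and 2 lower. This is the same fit as that without DDC injury replicate 1, so it is no separate check. The calls depend on how the no-injury arrays are counted. With all 6 arrays as separate samples, 9 member probes were higher and 2 lower. With these 3 arrays averaged into 1 sample, or without no-injury replicate 2, 0 member probes passed, although the differences were about as large (1.08 and 1.06 for the bright Cdkn1a probe, 1.67 and 1.66 for the bright Rbl1 probe, -0.99 and -0.95 for Rbl2), with limma adjusted p of 0.0829 at the lowest. At an unadjusted p under 0.05, 6 member probes were higher and 2 lower in each of these fits. Both leave 1 no-injury sample, so that the spread comes from the DDC injury samples alone and the lone sample is assumed to vary like them. In these fits 279 and 292 probes of all those tested were still higher, and 133 and 108 lower. With the scan as a random block, both probes of Cdkn2a and of Cdkn2b and the dim Rbl1 probe no longer passed (adjusted p = 0.0502 to 0.115). Without DDC injury replicate 3, the dim probes of Cdkn2a and Rbl1 and both probes of Cdkn2b did not pass (adjusted p = 0.0677 to 0.0806).

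**Figure D4:**
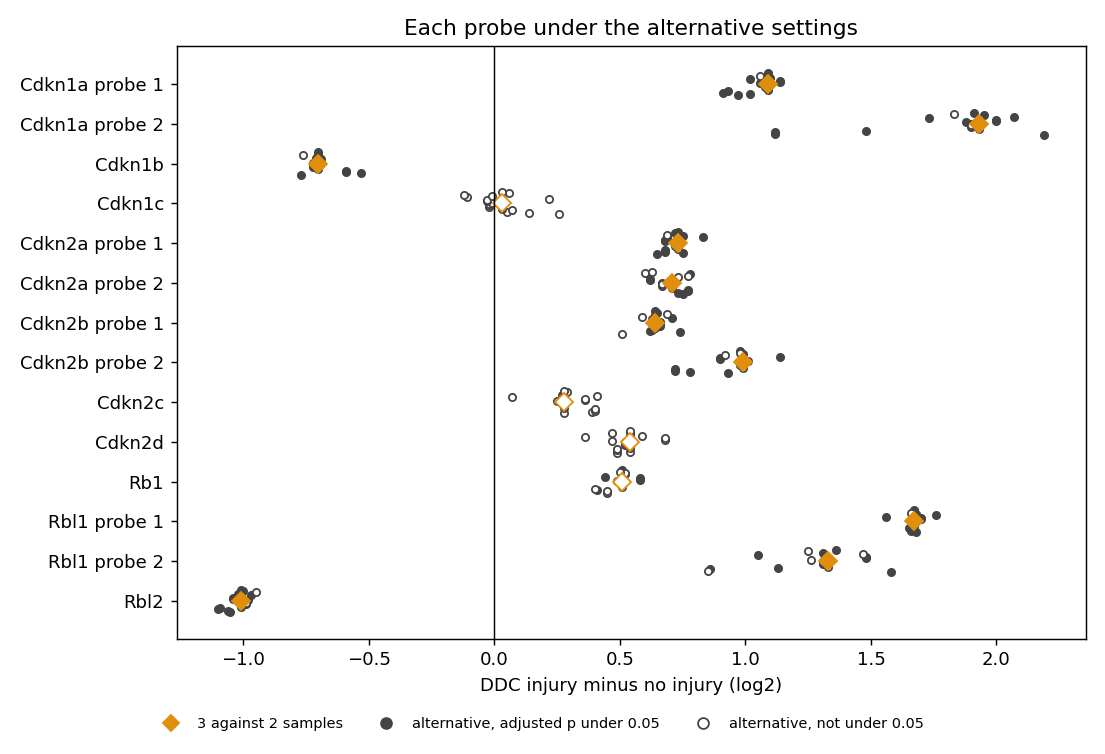
Difference between the groups (log2) at each member probe as computed here (diamond) and under the alternative settings at the level of probes or of the brightest probe (circles), filled where the adjusted p was under 0.05 and open where it was not. No circle of a called probe lies on the other side of 0, and the circles of the dim probes of Cdkn1a and Rbl1 spread most, from 1.12 to 2.19 and from 0.85 to 1.58.

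The genes on which these inhibitors act were described by lists of the connected pathways, each gene by its brightest probe. Over the 15622 genes tested in this way, 33.4% were called, 17.7% higher and 15.8% lower, and the median difference was -0.07. Of 15 tested cyclin and CDK genes, 5 rose and 0 fell in limma (6 and 1 at an unadjusted p under 0.05), with a median of 0.77. Cyclin D1, Ccnd1, the partner of CDK4 and CDK6, rose by 1.31 ± 0.15 (2.49-fold, adjusted p = 0.00716), whereas Cdk4, the main target of the INK4 proteins, differed by 0.09 ± 0.16 (adjusted p = 0.691). The mitotic cyclins Ccnb1, Ccnb2 and Ccna2 rose by 4.18, 4.02 and 3.92, and with the 3 no-injury arrays averaged these 3 genes still passed.

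Of 10 tested genes of E2F and DP factors, 5 rose and 1 fell, with a median of 0.52. E2f1, an activator held by pRB, read -0.77, -0.04 and -0.87 in DDC injury against -2.30, -2.32 and -2.30, and it rose by 1.75 ± 0.29 (adjusted p = 0.0166). E2f8 and E2f2 rose by 3.10 and 2.47. E2f4, the repressor that pairs with p107 and p130, read -2.25, -0.94 and -0.81 against 0.46, 0.39 and 0.52, without overlap and with replicate 1 lowest. Its difference of -1.78 ± 0.50 did not pass (adjusted p = 0.0583). In resting cells p130, E2F4 and the MuvB core form the repressor complex DREAM. Of 8 tested genes of the MuvB core and its partners, 5 rose and 1 fell (median 0.66), with the later partners of the core, Mybl2 (3.09) and Foxm1 (2.73), among those that rose and Lin52, a subunit of the core, lower, with a difference of -1.02 at its brightest probe. After averaging all 3 no-injury arrays, 0 E2F and DP genes passed in limma (5 higher and 1 lower at an unadjusted p under 0.05), and 1 gene of the MuvB list was higher.

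The target genes of these complexes were higher in larger numbers. Of 24 tested E2F targets of G1/S, 18 rose and 0 fell in limma, the same numbers as at an unadjusted p under 0.05, with a median of 1.62, among them the replication genes Gins2 (2.57), Rfc4 (1.79) and Dscc1 (3.28). Of 20 tested DREAM targets of G2/M, 19 rose and 0 fell, again also without adjustment, with a median of 3.59, among them Cenpe (4.11), Aurka (3.71) and Kif20a (3.64). With the 3 no-injury arrays averaged, 3 of the G1/S genes and 18 of the G2/M genes rose. The same arrays thus held higher signals of Cdkn1a, Cdkn2a and Cdkn2b and higher signals of genes of DNA replication and mitosis.

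**Figure D5:**
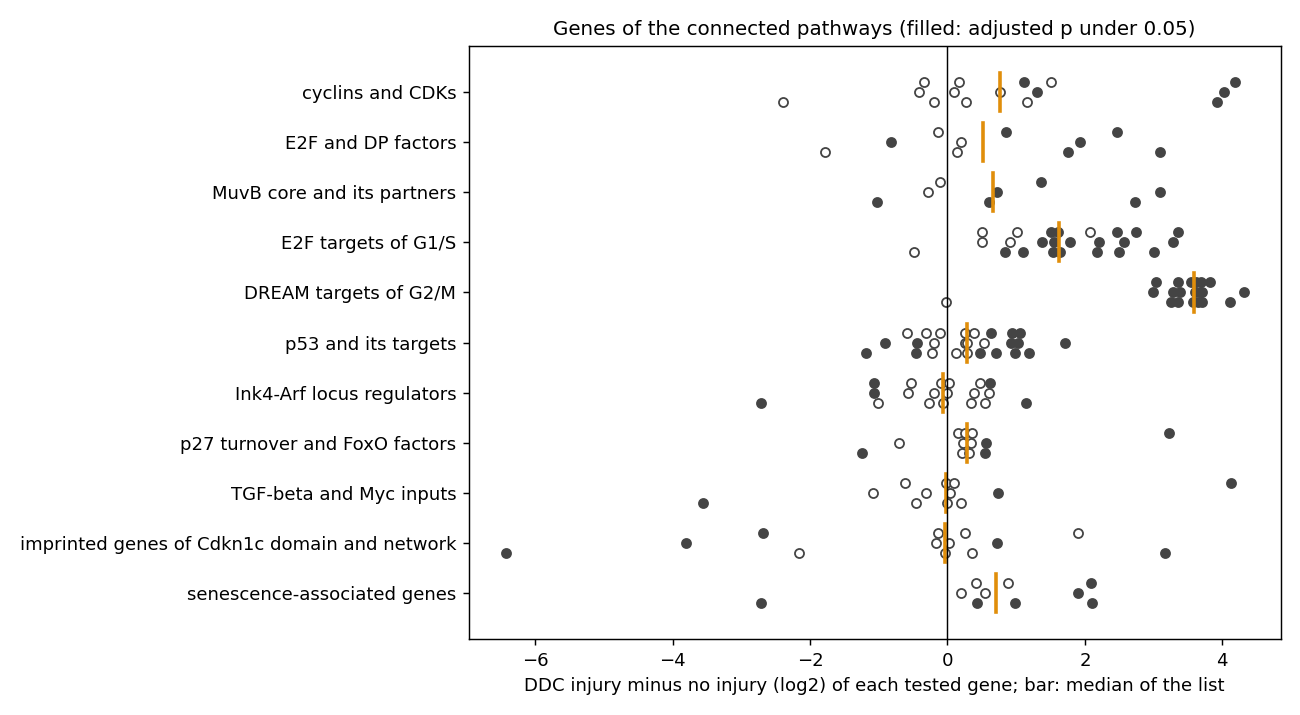
Difference between the groups (DDC injury minus no injury, log2) of each tested gene of the 11 connected lists, filled where the adjusted p was under 0.05, with the median of the list as a bar. The G2/M list stands furthest to the right at a median of 3.59, the G1/S list follows at 1.62, and the lists of regulators of the INK4 locus, of TGF-beta and Myc and of imprinted genes lie at medians of -0.06 to -0.02.

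The lists of regulators of the inhibitor genes are read against the 33.4% of all genes that were called. The called genes of the INK4 locus (5 of 19), p27 (4 of 12) and TGF-beta (3 of 12) lists were not above that share, and their counts are no result about these lists. Of 26 tested genes of p53 and its targets, Cdkn1a not counted, 10 rose and 4 fell (median 0.28). Trp53 itself read 1.71, 1.36 and 1.65 against 0.59, 0.70 and 0.62 and rose by 0.92 ± 0.15 (adjusted p = 0.0152). Mdm2, the p53 ubiquitin ligase and target, rose by 0.47 ± 0.11 (adjusted p = 0.0382), and the targets Aen and Phlda3 rose by 1.06 and 1.03, while the DNA repair gene Xpc fell by 1.18. Of 19 tested regulators of the INK4 locus, 2 rose and 3 fell (median -0.06). Ezh2, the Polycomb methyltransferase that silences this locus in dividing cells, rose by 1.14 ± 0.12 (adjusted p = 0.00603), and the Polycomb genes Ring1 and Cbx8 each fell by 1.07. The other called genes of this list were Cbx7, with the largest fall (difference -2.72, adjusted p = 0.0463), and Suz12 (0.62, adjusted p = 0.0349). Bmi1 differed by -0.06 ± 0.11 (adjusted p = 0.713), while a dimmer probe of Bmi1 had a difference of -0.65 and passed. With the 3 no-injury arrays averaged, 0 genes of these 2 lists passed in limma, against 9 and 3 at an unadjusted p under 0.05.

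Of 12 tested genes of p27 turnover and FoxO factors, 3 rose and 1 fell (median 0.29). Cks1b, the adaptor by which the SCF ligase recognises p27, read 4.51, 4.75 and 4.56 against 1.39, 1.35 and 1.41, and it rose by 3.23 ± 0.12 (9.41-fold, adjusted p = 0.000714). Foxo1, a transcription factor that activates Cdkn1b, read 0.95, 1.37 and 0.95 against 2.33, 2.34 and 2.35, and it fell by 1.25 (SE 0.17, adjusted p = 0.0105). The groups were wide apart at both genes. Ubac1, a subunit of the KPC ubiquitin ligase that acts on p27, rose by 0.55 ± 0.09 (adjusted p = 0.0177). Of 12 tested TGF-beta and Myc inputs, 2 rose and 1 fell (median -0.02). Tgfb1, the ligand gene, rose by 0.73 ± 0.10 (adjusted p = 0.0111), while Tgfb3 fell by 3.56 (SE 0.11, adjusted p = 0.000615). Myc differed by 0.19 ± 0.29 (adjusted p = 0.646). After the same averaging, 1 gene of the p27 list was higher and 1 of the TGF-beta list lower.

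Of 13 tested imprinted genes of the Cdkn1c domain and network, 2 rose and 3 fell (median -0.04). Over all genes tested by their brightest probe, 17.7% were higher and 15.8% lower. The counts of the imprinted list are near these shares and are no result about that list. Mest rose by 3.17 ± 0.33 and Nap1l4 by 0.72 ± 0.11 at its brightest probe (0.12 at another, which did not pass). The count of 3 includes Kcnq1, which was well above background on 3 of 6 arrays only, so that it could enter the test through 1 group alone, and no fold or p is given for it. Igf2 differed by -0.04 ± 0.51. Of 10 tested senescence-associated genes of a list of 16, 5 rose and 1 fell (median 0.71). Those that rose were Lmnb1 (1.90), the lamin that is lost in senescent cells, and Hmga1 (2.09 at its brightest probe, -0.15 to 3.82 over 3 probes). Cxcl2 (2.11), Hmgb1 (0.99) and Glb1 (0.43) rose as well, while Igfbp5 fell by 2.71. A rise does not mean the same for every gene of this list, so its counts and median have no single direction. After averaging all 3 no-injury arrays, 0 genes of this list passed in limma (4 higher and 2 lower at an unadjusted p under 0.05).

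Markers of liver cell types were read on the same arrays. Of the tested markers, 1 of 7 for hepatocytes rose and 3 fell, 4 of 8 for cholangiocytes and progenitors fell, 1 of 6 for macrophages fell and 2 of 4 for mesothelium fell. Over all genes tested by their brightest probe, 17.7% were higher and 15.8% lower. The 1 hepatocyte marker that rose and the 1 macrophage marker that fell are near these shares and are no result about those lists. None of the 5 stellate, 7 endothelial and 6 lymphocyte markers tested passed in limma, and 0 of each had an unadjusted p under 0.05. The summed signal of 7 hepatocyte markers was 25.4 to 31.2 times the 75th percentile in the DDC injury arrays and 32.8 to 37.4 times in the no-injury arrays, and that of 8 cholangiocyte and progenitor markers was 51.1 to 56.3 times against 64.3 to 66 times. The 8 macrophage markers summed to 2.94 to 6.39 times against 7.52 to 7.82 times, with Clec4f and Cd5l not well above background on any array. The 8 lymphocyte markers summed to 0.738 to 2.63 times against 1.73 to 2.28 times, with Cd3g and Ms4a1 not well above background on any array. The 8 stellate and fibroblast markers summed to 0.147 to 1.1 times against 0.352 to 0.516 times, with Des and Reln not well above background on any array. The 8 endothelial markers summed to 0.174 to 0.615 times against 0.554 to 0.823 times, and the 5 mesothelial markers to 22.3 to 27.9 times against 22.6 to 25 times. The summed ranges of the lymphocyte, stellate, endothelial and mesothelial markers overlapped between the groups. The part of the marker differences in the member genes was not tested, and in such bulk extracts fewer cells of a type and less RNA per cell cannot be told apart.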

How the data were processed

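RNA of 6 samples was measured on Agilent arrays of design 026655. Per the file headers, Feature Extraction 11.0.1.1 read the spots. The deposited columns used here are intensity values: the processed signal, background-subtracted and detrended within each array, and the median raw signals of spot and local background. A table deposited by the authors gives normalized log2 values, whose quantiles are nearly equal between arrays. The submitters' processing notes name limma, and its starting column is not given in the sources used here. Probes were named by transcript accession through RefSeq (27234 of 39429 probes had 1 symbol and 12195 stay unnamed). Outlier spots were left out, repeated spots averaged, and log2 processed signals set relative to the array's 75th percentile. Testing required 3 or more arrays of 6 with the probe well above background and 2 or more values per group. The two-sided test was limma's (version 3.58.1, R 4.3.3, eBayes after lmFit), with Benjamini-Hochberg adjustment over all probes. The procedure was tested on 5 sets of simulated data with 3 and 2 samples. It called 58.6% of probes shifted 8-fold and 3.2% of those shifted 2-fold, with 4.4 unshifted probes called per set. Each set shifted 200 of 27049 probes, a far smaller share than was called in the data, so these percentages do not carry over directly. A probe that did not pass may still differ. The number of arrays limits the precision. Members, lists and tests were chosen with earlier results of these data known. All members are named, and of each list up to 3 called genes with the smallest adjusted p and up to 2 fixed genes, except 1 that is not reported here. Replicate numbers share only the number and were not used as pairs. Alternatives covered background correction (normexp on median signals), scaling, the filter, scan, replicates and gene-level fits.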

Additional observations from a re-analysis of the deposited data

How the results depend on the processing

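No called probe changed direction under any alternative run, and of 258 values of single probes 212 stayed on the same side of the threshold, 38 lost the call and 8 gained it, the latter all of Rb1. These numbers include 1 fit under 2 names, within the second scan day and without DDC injury replicate 1. Of the 14 member probes, 3 were higher without a filter on dim probes and 3 with the scan as a random block, which estimated a correlation of 0.566 (2 lower in both). Averaging all 3 no-injury arrays left 0 higher and 0 lower. Leaving out 1 replicate gave 0 to 9 higher and 0 to 2 lower. At the level of genes, by the brightest probe or by the mean of probes, 5 of 10 were higher and 2 lower. Over all features, 4243 probes were higher and 3788 lower. These became 279 and 133 after averaging the 3 no-injury arrays, 292 to 5490 and 108 to 4839 leaving out 1 replicate, 2761 and 2463 for genes by the brightest probe, and 2693 and 2395 by the mean of probes. Lower probes numbered 2494 without a filter and 5933 with 6 arrays as separate samples. A fit on 6 arrays with the replicate number as a block gave 8 higher and 2 lower member probes (4360 and 4200 of all), and did not change the side of the threshold of any member. The deviations of same-numbered arrays correlated at 0.17, 0.08 and -0.01, and DDC injury replicate 3 correlated best with no-injury replicate 2 (0.14), so the numbers were not taken as pairs. Normexp with the 75th percentile moved the median over all probes from -0.10 to 0.08. Of the 22 counts of the pathway lists, 17 moved by more than 1.5 times after averaging the 3 no-injury arrays, 6 within the scan day that held both groups and 3 in the authors' values, alternatives chosen after seeing the data. Dim probes, those of Cdkn1c and the dim ones of Cdkn1a and Rbl1, limit what can be said of small changes.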
